A study of Mus musculus with 108 samples.

Results

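The genes described here are 10 of the 55573 genes in the count files of a study of single mouse oocytes: 9 chaperones of the cytosol and their main transcriptional activator, Hsf1. The members were taken by gene symbol alone, through the Ensembl mouse IDs in the files, and all 10 were found and passed the filter on low counts in both library types. Each sample was 1 oocyte from a control female or from one whose Exosc10 was knocked out conditionally in the oocyte (cKO). Exosc10 is a nuclear catalytic subunit of the RNA exosome, which trims and degrades RNA from its 3′ end. Stages were GV (the germinal vesicle stage, before meiosis resumes), GV3h (after 3 h of ex vivo culture in M2 medium) and MII (mature eggs taken from the oviduct). PolyA libraries, made from RNA captured on oligo(dT) beads, held 7 control and 15 cKO oocytes at GV. At GV3h they held 8 control and 11 cKO oocytes, and at MII 8 and 15 eggs. RiboMinus libraries, made with the Ovation Solo kit and random hexamers and so not dependent on a poly(A) tail, held 8 control and 7 cKO oocytes at GV, and 3 and 4 at MII. The labels name neither the Cre line that makes the deletion nor the alleles of the controls, and they give no age or strain.

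Oocytes of 1 female are not independent, and neither genotype nor stage varied within a female. The tests were therefore run on counts summed per female, with 2 females per group at polyA GV and RiboMinus GV, 3 per group at polyA GV3h and MII, and 2 cKO females against 1 control female at RiboMinus MII. In that last group genotype and female cannot be told apart, and the test assumes that the lone female varied like the others. Values are CPM (counts scaled to a common library size after TMM), given as mean ± SD over oocytes. A gene is called when its Benjamini-Hochberg adjusted p, over all genes of edgeR's quasi-likelihood test, is under 0.05. The list was drawn up with earlier results of these data known, so the calls describe the members and are no independent evidence about the set.

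Libraries held 4638718 to 8735914 gene counts (polyA) and 12319658 to 62675760 (RiboMinus). All 16 oocyte markers averaged at least 1 CPM in every group. Of 16 granulosa and cumulus markers, 3 to 9 per group did so, with a summed level of 69.8 to 203 CPM per oocyte. Blood markers summed to at most 2.75 CPM, except in 1 cKO RiboMinus egg at 13.8 CPM. Their part in the results was not tested. Exosc10 itself was called lower in the cKO in all 5 genotype comparisons, with log2 fold changes from -7.49 to -5.34, so the libraries went with their genotype labels. All values are relative to the rest of a library, and fewer transcripts of a gene cannot be told apart from more RNA of other genes.

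Cytosolic chaperones hold unfolded proteins and help them fold. HSP70 proteins bind exposed stretches in cycles of ATP hydrolysis that J-domain proteins start and nucleotide exchange factors end, and clients such as kinases and receptors then pass to HSP90. On heat or proteotoxic stress HSF1 trimerises, binds heat shock elements (inverted repeats of the unit NGAAN) and induces the stress-inducible members, whereas the constitutive ones are made at high levels in most cells. The full-grown oocyte is transcriptionally silent through maturation, so that its mRNAs are controlled by stability and by the length of the poly(A) tail.

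The constitutive HSP70 is Hspa8, or Hsc70 (chr9:40800984-40810087, plus strand, GRCm38), and Hspa2 (chr12:76404176-76406938) is best known from the male germ line. Hspa1a (chr17:34969190-34972156) and Hspa1b (chr17:34956436-34959238) are the neighbouring, nearly identical stress-inducible HSP70 genes. Hspa4 (chr11:53259814-53300457) and Hsph1, or HSP105 (chr5:149614287-149636376), belong to the HSP110 family of exchange factors. Dnajb1 (chr8:83608193-83612653) is the J-domain partner HSP40. Hsp90aa1 (chr12:110690605-110702728) and Hsp90ab1 (chr17:45567775-45573271) encode the more inducible and the more constitutive HSP90, and Hsf1 (chr15:76477422-76501913) encodes the activator. These coordinates are those of the GENCODE M21 annotation.

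The sequence of the promoters and transcripts bears on how the values can be read. RefSeq promoters on GRCm38.p6 were matched for 6 members: Hspa1a, Hspa1b, Hspa2, Hspa4, Hsph1 and Dnajb1. The 250 bases upstream of the RefSeq start were searched on both strands for 2 minimal heat shock elements, GAANNTTC and TTCNNGAA, each of which is its own reverse complement. RefSeq starts can differ from the GENCODE coordinates above. Windows of Hspa2, Hsph1 and Dnajb1 reach into the GENCODE gene, and the Hsph1 match lies inside it. Either occurred in 12.8% of 32851 promoters in the table, and in 3 of the 6 members. The longer element with another unit added was in 0.466% of promoters and in none of these 6. The stretches of 30 bases around the matches are shown because they hold the only matches among these 6 genes, with the element in capitals, at chr17:34972242-34972271, chr17:34959324-34959353 and chr5:149636351-149636380, all on the minus strand and all 5′ to 3′:
Hspa1a: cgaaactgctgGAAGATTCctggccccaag
Hspa1b: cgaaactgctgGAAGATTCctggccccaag
Hsph1: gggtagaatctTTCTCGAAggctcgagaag
The Hspa1a and Hspa1b stretches are the same and the Hsph1 stretch is another sequence with the other element. In the Hspa1 pair the 250 upstream bases were identical at 247 positions (98.8%). The absence of a match says only that these letters are not in the window.

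Shared sequence also reached into the transcripts. Of the 50-base words of Hspa1a transcripts, 58.8% also occurred in Hspa1b, and 62.3% of those of Hspa1b occurred in Hspa1a, so the split of reads between this pair is uncertain. Hspa8 shared 39.4% of its words with other genes, most of them (34.6% of all) with Gm15459, a processed pseudogene at chr5:5781615-5783555. Hsp90aa1 shared 47.5% with other genes, most of them (41.8% of all) with the pseudogene Gm12346. The corresponding total was 3.44% for Hsp90ab1 and 0.412% for Dnajb1, and it was 0 for Hspa2, Hspa4, Hsph1 and Hsf1.

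Per kilobase of exon, the HSP90 pair led in control GV oocytes in both library types. In polyA libraries Hsp90ab1 stood at 138.6 CPM per kb and Hsp90aa1 at 112.4, followed by Dnajb1 (55.6), Hspa4 (37.9), Hsph1 (25.9), Hspa8 (13.01) and Hsf1 (10.2). Hspa2 stood at 2.54 CPM per kb, Hspa1b at 1.01 and Hspa1a at 0.106. RiboMinus libraries gave the same order at GV. By these counts the inducible pair was the lowest of the 10 in GV control oocytes, and the constitutive Hspa8 was below its exchange factors. Shared words can take reads from Hspa8, Hspa1a and Hspa1b, whereas Hspa2, Hspa4 and Hsph1 share none. The order was not corrected for this, so these ranks may not be those of the transcripts.

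**Figure D1:**
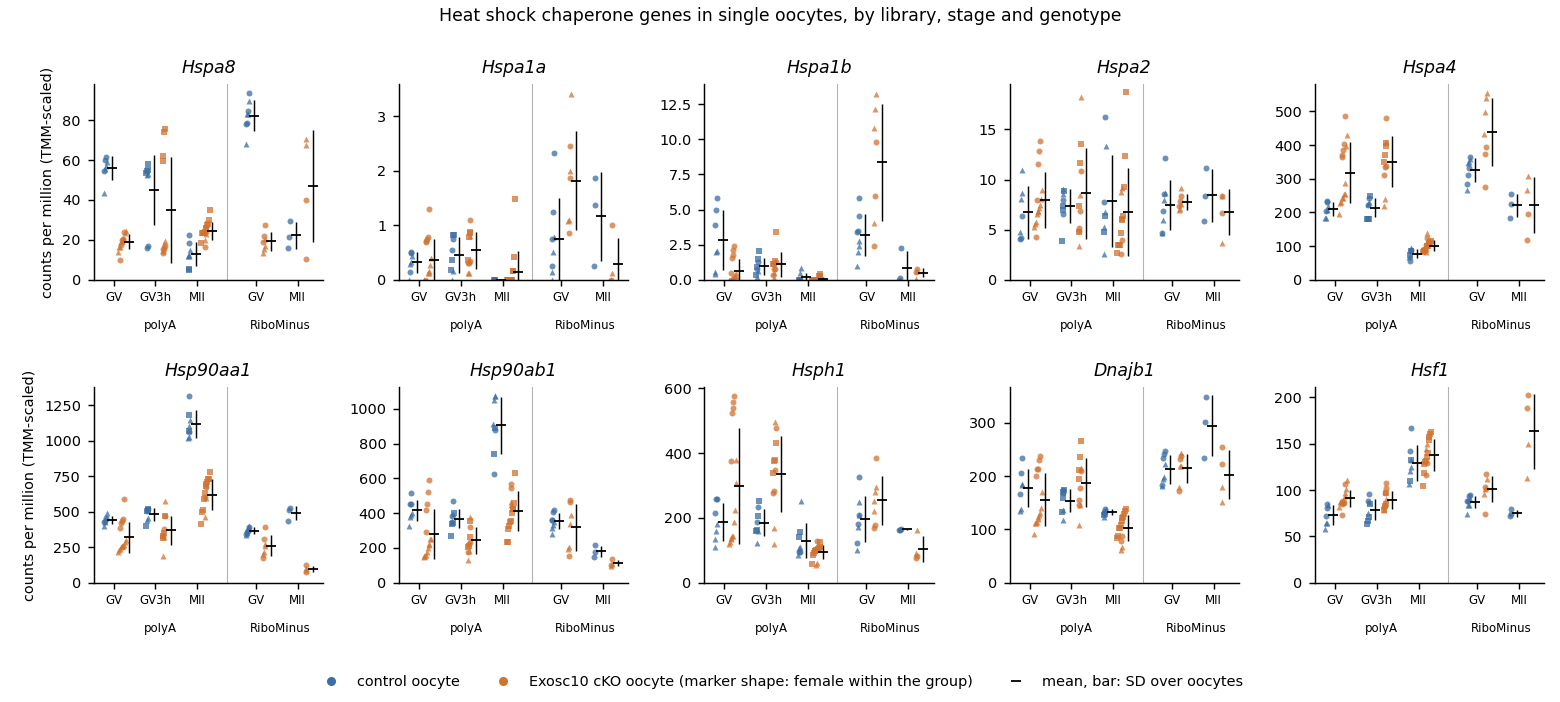
CPM of each of the 10 genes in every oocyte (points, 1 per oocyte, shaped by female within a group), by library type, stage and genotype on the x axis, with the mean and SD over oocytes in black. Control MII eggs are the highest polyA group for both HSP90 genes, and Hspa8 falls into a high and a low set of oocytes at GV and GV3h.

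The genotype comparison, cKO against control within a library type and stage, asks what the loss of Exosc10 goes with at each stage. Few members were called. The count was 0 of 10 at polyA GV, where 7.38% of all 19242 genes tested were called. It was 2 at GV3h against 25.2% of genes, and 2 at MII against 18.9%. In RiboMinus libraries it was 0 at GV against 0.0315% of 25425 genes, and 1 at MII against 7.3%. The members' shares were near the background at GV3h and MII. Scaling by library totals moved the median over all genes up by 0.09 to 0.23 on the log2 scale in these 5 comparisons. At polyA GV, 1 to 7 members were called under 6 of the 8 alternatives, with 7 when each oocyte was a replicate, a fit that called 35.8% of all genes. In the other 5 the members called were 1 or 3, and 5.94% to 20.1% of all genes were called.

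**Figure D2:**
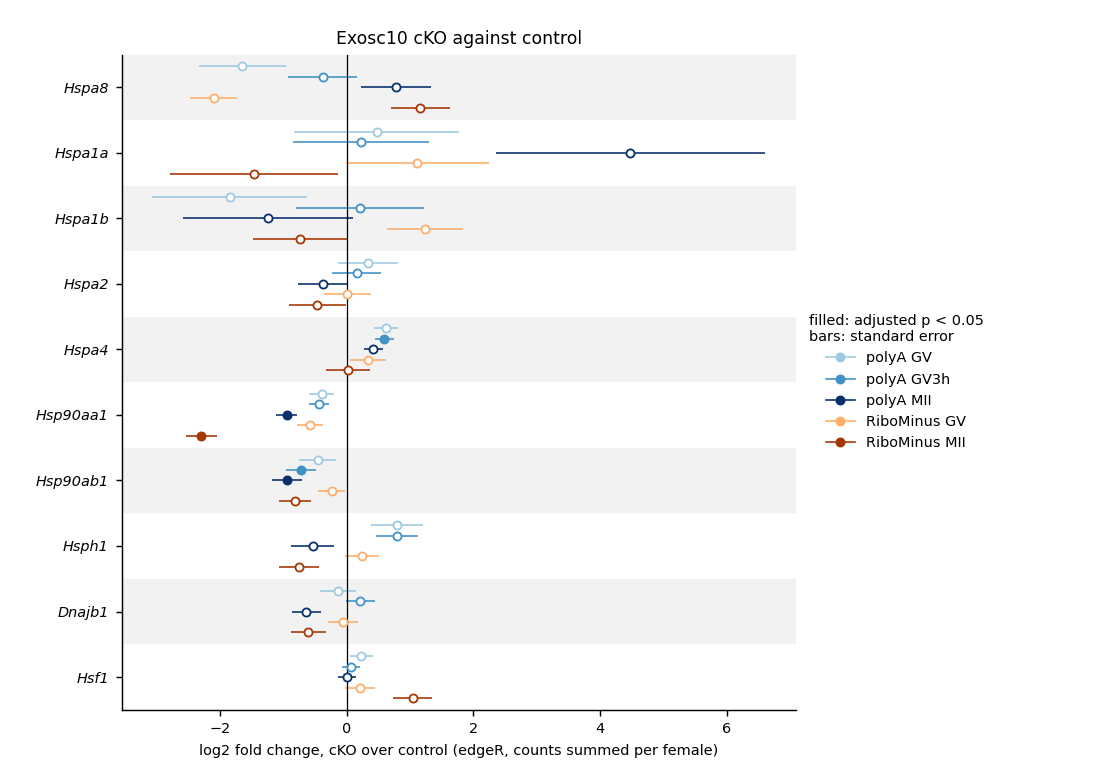
Log2 fold change of cKO over control (x axis) for each gene (rows), by library type and stage (colours), from edgeR on counts summed per female, with bars for the standard error and filled points for an adjusted p under 0.05. The filled points are Hspa4 at GV3h, Hsp90ab1 at GV3h and MII, and Hsp90aa1 at MII in both library types. The Hspa1a value at polyA MII is fitted against a group with no counts and is no estimate of size.

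The HSP90 genes were lower in cKO eggs. In polyA MII libraries Hsp90aa1 ranged from 1021 to 1317 CPM in controls (median 1089) and from 412 to 782 in the cKO (median 632). Every cKO egg was below every control egg. The log2 fold change was -0.95 (SE 0.16, adjusted p = 0.0012), and the call held under all 7 alternatives that bear on this gene (all but the addition of pseudogene counts to Hspa8) and without each of the 6 females in turn. In RiboMinus libraries the 3 control eggs held 511, 529 and 436 CPM of Hsp90aa1, and the 4 cKO eggs held 122, 74.5, 90.3 and 105. The ranges were again apart, and the log2 fold change was -2.30 (SE 0.24, adjusted p = 0.012). Marker sums also differed between these eggs. Granulosa and cumulus markers summed to 155 to 169 CPM in RiboMinus control eggs and 77.5 to 110 in cKO eggs, and in polyA eggs to 105 to 173 and 90.3 to 160 CPM, with overlap. Oocyte markers summed to 15978 to 17119 CPM in RiboMinus control eggs and 10745 to 14769 in cKO eggs, and in polyA eggs to 24481 to 29980 and 30394 to 36468 CPM. Their part in the HSP90 differences was not tested.

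Hsp90ab1 followed the same direction. At polyA MII it ranged from 626 to 1076 CPM in controls (median 903) and from 233 to 634 in the cKO (median 422). Only the extremes met: the highest cKO egg lay just above the lowest control egg. The log2 fold change was -0.95 (SE 0.24, adjusted p = 0.012), and the call ended without female V897 of the cKO or V853 of the controls (largest adjusted p = 0.053). At polyA GV3h the control oocytes ranged from 271 to 467 CPM (median 369) and the cKO oocytes from 131 to 377 (median 224), with overlap. That call, -0.72 (SE 0.24, adjusted p = 0.036), ended without any 1 of the 6 females (largest adjusted p = 0.12) and with library totals as scaling (adjusted p = 0.14). RiboMinus control eggs held 147, 214 and 178 CPM and cKO eggs 104, 137, 96.96 and 106. These did not overlap, but the difference of -0.82 (SE 0.26, adjusted p = 0.083) did not pass.

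Before maturation the Hsp90aa1 estimates were smaller and did not pass. At polyA GV its log2 difference was -0.39 (SE 0.20, adjusted p = 0.25), at GV3h -0.44 (SE 0.16, adjusted p = 0.060) and at RiboMinus GV -0.58 (SE 0.20, adjusted p = 0.26). Hsp90ab1, not called at GV, averaged 281 CPM in the cKO and 416 in controls at polyA GV. At RiboMinus GV it averaged 318 and 353 CPM. In edgeR the genotype difference was not called as changing from GV to MII for either HSP90 gene, in either library type. The 2 cKO females at polyA GV stood apart from each other. Female V857 held 431 CPM of Hsp90ab1, 491 of Hsph1 and 210 of Dnajb1, and female V888 held 182, 176 and 117. The control females V856 and V889 held 472 and 372 CPM of Hsp90ab1, 241 and 145 of Hsph1 and 199 and 159 of Dnajb1.

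Of the 2 exchange factors, Hspa4 passed in 1 genotype comparison and Hsph1 in none. At polyA GV3h Hspa4 ranged from 180 to 250 CPM in controls (median 224) and from 220 to 480 in the cKO (median 349). It was called higher in the cKO, by 0.59 on the log2 scale (SE 0.15, adjusted p = 0.0092), under all 7 of those alternatives and without each of the 6 females. At GV the control oocytes held 183 to 235 CPM (median 208) and the cKO oocytes 197 to 487 (median 288). That difference, 0.62 (SE 0.18, adjusted p = 0.052), narrowly missed and was called under 6 of the 7 alternatives. At MII it was 0.42 (SE 0.15, adjusted p = 0.063), and in RiboMinus libraries 0.34 (SE 0.28) at GV and 0.02 (SE 0.34) at MII.

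Hsph1, the other HSP110 gene, had log2 differences of 0.79 at polyA GV (SE 0.41, adjusted p = 0.26), 0.79 at GV3h (SE 0.34, adjusted p = 0.095) and -0.54 at MII (SE 0.34, adjusted p = 0.28). The sign of the estimate thus differed between immature oocytes and eggs, but the difference between those differences did not pass (-1.33, SE 0.53, adjusted p = 0.22). At RiboMinus MII the control eggs held 163, 164 and 166 CPM and the cKO eggs 75.3, 82.6, 93.04 and 163. The ranges were apart by a margin far below the spread of the cKO eggs, and the difference of -0.76 (SE 0.32, adjusted p = 0.17) did not pass.

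Dnajb1 passed in no genotype comparison. Its largest difference was at polyA MII, where controls ranged from 124 to 139 CPM (median 133) and cKO eggs from 60.8 to 138 (median 102). The estimate was -0.64 (SE 0.23, adjusted p = 0.069), and it was called under 6 of the 7 alternatives. Control eggs were nearly uniform, with an SD of 5.16 CPM against 24.3 in the cKO.

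Hsf1 also passed in none. In polyA libraries its differences were 0.23 (SE 0.18) at GV, 0.06 (SE 0.15) at GV3h and 0.00 (SE 0.15) at MII. At RiboMinus MII the control eggs held 73.6, 71.9 and 79.0 CPM and the cKO eggs 188, 202, 150 and 113, with no overlap. That difference, 1.04 (SE 0.31, adjusted p = 0.072), was called under 5 of the 7 alternatives. Between library types the genotype difference of Hsf1 at MII differed by -1.08 (polyA minus RiboMinus, SE 0.30, adjusted p = 0.029), a call that ended without V1166, V841 or V836 (largest adjusted p = 0.12). For Hsp90aa1 the corresponding value was 1.31 (SE 0.28, adjusted p = 0.0058), the fall in cKO eggs being larger in RiboMinus libraries. These were the 2 members called there, against 9.43% of the 24777 genes tested. At GV the same test called 0 members, against 0.00404% of genes.

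The stress-inducible genes and Hspa2 were not called in any genotype comparison. Hspa1b at RiboMinus GV ranged from 0.964 to 5.85 CPM in controls (median 3.07) and from 2.42 to 13.2 in the cKO (median 9.79), with overlap and a log2 difference of 1.23 (SE 0.60, adjusted p = 0.39). In polyA GV oocytes the estimate had the other sign, at -1.85 (SE 1.22, adjusted p = 0.39), from 0.433 to 5.82 CPM in controls (median 2.07) and 0 to 2.39 in the cKO (median 0.259). Hspa1a averaged at most 1.82 CPM in any group. Hspa2 averaged between 6.72 and 8.62 CPM in all 10 groups, and every neighbouring pair in the order of its group means within a library type lay within 1 SD.

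Hspa8 had the widest separation of genotypes at GV. In polyA libraries the 7 control oocytes ranged from 43.6 to 61.6 CPM (median 57.1) and the 15 cKO oocytes from 10.1 to 24.3 (median 19.2). RiboMinus libraries gave 68.1 to 93.6 CPM in 8 controls (median 83.0) and 13.4 to 27.3 in 7 cKO oocytes (median 19.1). No cKO oocyte reached a control oocyte in either. The test over females gave -1.65 (SE 0.68, adjusted p = 0.15) and -2.10 (SE 0.37, adjusted p = 0.088), neither of which passed. With oocytes in limma voom and the female as a random block, both did (adjusted p = 8.7e-05 and 0.0057). That fit applies a single correlation within females to all genes (0.199 in polyA and 0.196 in RiboMinus libraries). Hspa8 split by female at GV3h, as given below, so for this gene these p-values can rest on oocytes counted as if independent.

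At GV3h the pattern broke by female and not by genotype. Control females V951, V982 and V995 held 16.3, 52.3 and 55.1 CPM, and cKO females V946, V983 and V993 held 14.4, 16 and 64.6. One control female was as low as the cKO females at GV, and 1 cKO female was as high as the controls at GV. Exosc10 in these 6 females followed the labels (56.8 CPM in V951 and 1.47 in V993). At MII the Hspa8 estimate had the opposite sign: polyA controls held 5.07 to 22.5 CPM (median 12.2) and cKO eggs 16.6 to 35.1 (median 24.0), at 0.78 (SE 0.56, adjusted p = 0.35).

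The pseudogene Gm15459, looked at after the values of Hspa8 were seen, stood the other way in GV oocytes, though its own difference did not pass (0.95, SE 0.39, adjusted p = 0.14, in polyA libraries). In polyA GV libraries it held 20.8 ± 3.61 CPM (SD, n = 7) in controls and 43.4 ± 6.98 (SD, n = 15) in the cKO. Of the counts assigned to Hspa8 or Gm15459, the pseudogene took 27.1% ± 3.10 in those controls and 69.7% ± 2.46 in the cKO. By female this share fell into 2 ranges over all stages and library types: 60.4% to 72.1% in 9 females and 21.3% to 35.5% in the other 14. The 9 were 6 of 12 cKO females and 3 of 11 controls. At GV3h they were V951, V946 and V983, the same 3 females in which Hspa8 was low.

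Summing both genes narrowed the genotype difference of Hspa8. The summed level was 76.8 ± 8.28 CPM in polyA GV controls and 62.4 ± 10.3 in the cKO, and 105 ± 9.34 against 56.6 ± 20.7 CPM in RiboMinus GV oocytes. The log2 difference of the sum was -0.40 (SE 0.29, adjusted p = 0.45) in polyA GV and -0.89 (SE 0.37, adjusted p = 0.32) in RiboMinus GV libraries. At polyA GV3h it was -0.07 (SE 0.24), and at polyA MII it was 0.61 (SE 0.24, adjusted p = 0.091). Why the split between gene and pseudogene differed between females was not tested. Gm12346, which shares words with Hsp90aa1, was not examined further here.

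**Figure D3:**
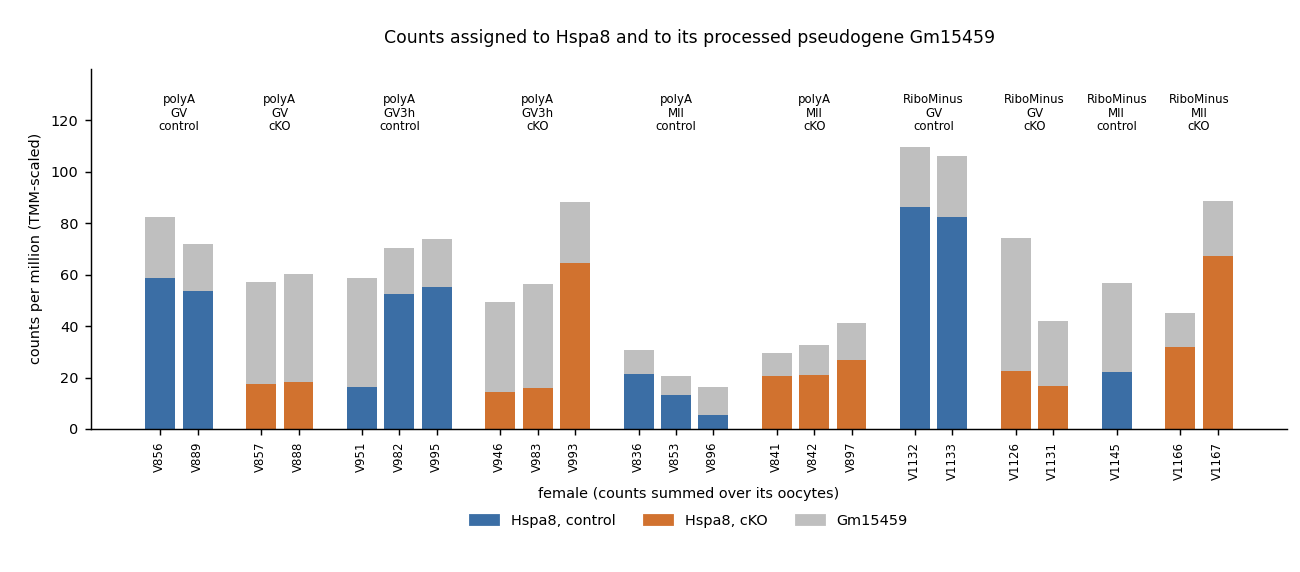
CPM assigned to Hspa8 (coloured, control or cKO) and, stacked above them, to its processed pseudogene Gm15459 (grey), for each of the 23 females, grouped by library type, stage and genotype. The grey part exceeds the coloured part in 9 females, among them both cKO females at polyA GV and 1 of the 3 control females at GV3h.

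During maturation from GV to MII the members moved in both directions in polyA libraries. In controls 7 of 10 were called, 3 higher and 4 lower at MII, against 42.5% of all genes. In the cKO 6 were called, 2 higher and 4 lower, against 44.7%. The median over all genes was -0.26 in controls and -0.33 in the cKO on the log2 scale, and -0.69 and -0.86 when libraries were scaled by their totals. The medians of the 10 members were -0.47 and -0.62.

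**Figure D4:**
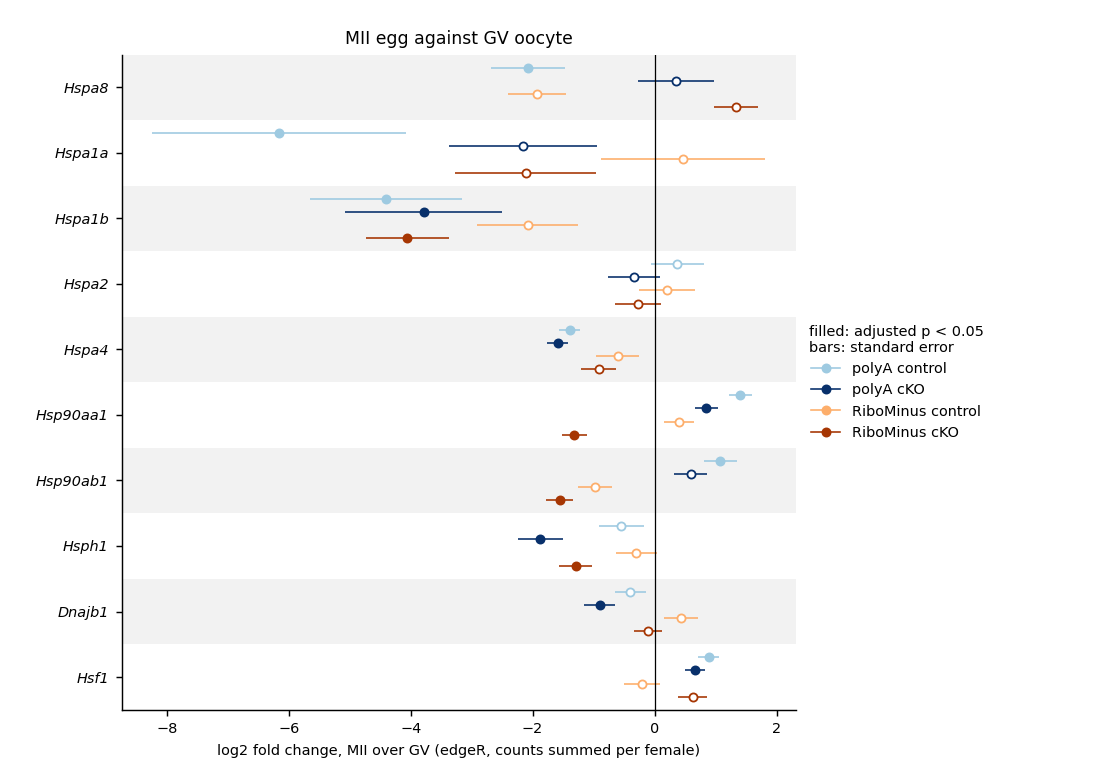
Log2 fold change of MII over GV (x axis) for each gene (rows), by library type and genotype (colours), from edgeR on counts summed per female, with bars for the standard error and filled points for an adjusted p under 0.05. The HSP90 pair lies to the right of 0 in polyA libraries, and in RiboMinus cKO libraries it lies to the left. The Hspa1a value in polyA controls is fitted against a group with no counts.

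Both HSP90 genes and Hsf1 rose in polyA controls. Hsp90aa1 went from 400 to 490 CPM at GV (median 438) to 1021 to 1317 at MII (median 1089), a log2 change of 1.4 (SE 0.19, adjusted p = 2e-05). Hsp90ab1 went from 326 to 514 (median 398) to 626 to 1076 CPM (median 903), a change of 1.08 (SE 0.27, adjusted p = 0.0045). Hsf1 went from 57.9 to 85.3 (median 72.5) to 106 to 167 CPM (median 129), a change of 0.89 (SE 0.17, adjusted p = 0.00047). None of the 3 overlapped between stages, and neither did Hspa8 and Hspa4, which fell. The share of all genes without such overlap was not counted, and 42.5% of all genes were called in this comparison. Library totals as scaling shifted the median of all genes by -0.43 in this comparison. Hsp90ab1 then changed by 0.64 (adjusted p = 0.068), and without female V889 it also lost the call.

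In the cKO the polyA rises were 0.85 for Hsp90aa1 (SE 0.19, adjusted p = 0.0016), 0.66 for Hsf1 (SE 0.17, adjusted p = 0.0044) and 0.59 for Hsp90ab1 (SE 0.27, adjusted p = 0.085), the last of which did not pass. With library totals the first fell to 0.33 (adjusted p = 0.14) and the second to 0.13 (adjusted p = 0.51). Without V857 the Hsp90aa1 value was 1.33, and without V888, the other GV cKO female, it was 0.48, called in both cases. The difference between genotypes in this change did not pass for either HSP90 gene (-0.55, SE 0.26, for Hsp90aa1 and -0.48, SE 0.37, for Hsp90ab1).

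RiboMinus libraries gave another picture of the HSP90 pair. Control GV oocytes held 333 to 398 CPM of Hsp90aa1 (median 362), and the 3 control eggs were above all of them. For Hsp90ab1 the GV range was 279 to 421 CPM (median 353), and the 3 control eggs were below all of them. The log2 changes were 0.40 (SE 0.25, adjusted p = 0.48) and -0.98 (SE 0.27, adjusted p = 0.16). Of the 10 members 0 passed there in edgeR, against 0.00787% of all genes, and 2 passed in DESeq2, which called 6.37% of all genes. The ratio of Hsp90aa1 to Hsp90ab1 counts was 1.06 ± 0.18 in the 8 control GV oocytes and 2.80 ± 0.58 in the 3 control eggs.

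The polyA change during maturation exceeded the RiboMinus change in controls. The difference was 2.22 on the log2 scale for Hsp90ab1 (SE 0.42, adjusted p = 0.00045), 1.17 for Hsp90aa1 (SE 0.31, adjusted p = 0.0078) and 1.26 for Hsf1 (SE 0.32, adjusted p = 0.0054). These 3 of 10 members were called, against 22.8% of all genes. With library totals, which shifted the median of all genes by -0.32 in this comparison, the values were 1.68, 0.63 and 0.73, and the last 2 were not called. The MII controls in RiboMinus libraries were 1 female, and the 2 library types held different females.

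**Figure D5:**
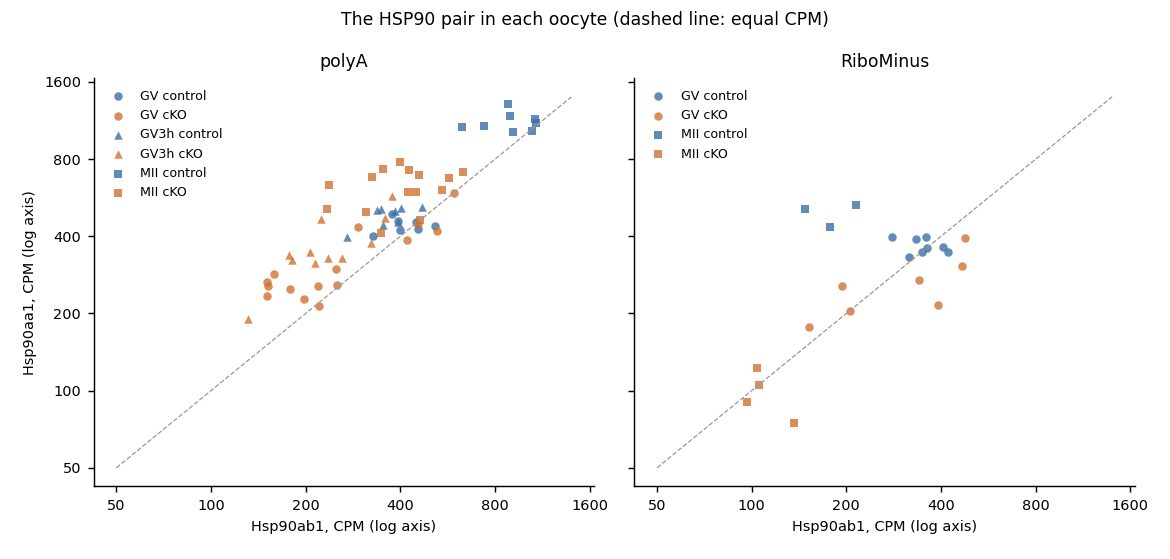
Hsp90aa1 against Hsp90ab1 in each oocyte, in CPM on log axes, for polyA (left) and RiboMinus libraries (right), with stage as marker shape, genotype as colour and a dashed line at equal CPM. In polyA libraries control eggs have the highest mean of both genes, whereas in RiboMinus libraries they lie well above the line with less Hsp90ab1 than control GV oocytes, and cKO eggs are lowest in both genes.

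In RiboMinus cKO libraries both HSP90 genes fell on maturation. Hsp90aa1 went from 177 to 394 CPM at GV (median 256) to the 4 low eggs given above, a change of -1.32 (SE 0.21, adjusted p = 0.028). For Hsp90ab1 the GV range was 152 to 476 CPM (median 340), and the change was -1.56 (SE 0.22, adjusted p = 0.023). Hspa1b (-4.05, SE 0.68, adjusted p = 0.032) and Hsph1 (-1.30, SE 0.27, adjusted p = 0.0495) were the others of the 4 called, against 2.32% of all genes. None of the 4 was called with only these 2 groups in the fit (adjusted p from 0.12 to 0.15), and each lost its call without V1131 or without V1166, Hsph1 also without V1126. The HSP90 pair made up 46.1% ± 0.94 of the summed CPM of the 10 members in control eggs (n = 3) and 21.9% ± 2.09 in cKO eggs (n = 4), and in polyA eggs 80.4% ± 2.97 (n = 8) and 68.5% ± 4.41 (n = 15).

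Hspa4 fell on maturation in polyA libraries of both genotypes. It went from a median of 208 to 79.6 CPM in controls (MII range 56.2 to 94.1) and from 288 to 101 CPM in the cKO (MII range 81.9 to 138), without overlap of stages in either. Its changes were -1.39 (SE 0.17, adjusted p = 4.9e-06) and -1.59 (SE 0.17, adjusted p = 1.5e-06). In RiboMinus libraries the estimates were -0.60 (SE 0.35) and -0.92 (SE 0.28), and neither passed.

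Hsph1 and Dnajb1 passed in the cKO, at -1.87 (SE 0.37, adjusted p = 0.00064) and -0.90 (SE 0.26, adjusted p = 0.0093). In controls the estimates, -0.54 (SE 0.37) and -0.40 (SE 0.26), did not pass. The difference between genotypes in this change was -1.33 for Hsph1 (SE 0.53, adjusted p = 0.22) and -0.51 for Dnajb1 (SE 0.37, adjusted p = 0.53). Without V857, Hsph1 in the cKO changed by -0.95 and Dnajb1 by -0.42, the latter no longer called (adjusted p = 0.28).

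Hspa8 fell by 2.08 on the log2 scale in polyA controls (SE 0.61, adjusted p = 0.012), with no overlap between stages, and the call held without each of the 5 females. The summed counts of Hspa8 and Gm15459 fell by 1.78 (SE 0.27, adjusted p = 5.4e-05). In the cKO, Hspa8 alone changed by 0.35 (SE 0.62, adjusted p = 0.68), whereas the sum fell by 0.77 (SE 0.27, adjusted p = 0.027), so that the direction in the cKO turned with the counting. The difference between genotypes in this change was 2.43 for Hspa8 (SE 0.88, adjusted p = 0.18) and 1.01 for the sum (SE 0.38, adjusted p = 0.20). In RiboMinus libraries it was 3.26 (SE 0.61, adjusted p = 0.13) and 1.13 (SE 0.59, adjusted p = 0.42).

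The inducible genes were hardly detected in polyA eggs. Hspa1a had 0 counts in all 8 control eggs, which is at least 6.585-fold lower than in control GV oocytes against the floor of 3 counts over the group. Its call ended without any 1 of the 5 females (largest adjusted p = 0.080). Hspa1b fell by 4.4 on the log2 scale in controls (SE 1.25, adjusted p = 0.0093), not called without V856 (-3.16, adjusted p = 0.12) and fitted at -9.42 without V853. In the cKO it fell by 3.79 (SE 1.29, adjusted p = 0.025), not called without V857 (-1.18, adjusted p = 0.57), V841 or V842, and fitted at -7.40 without V897. Fits this large rest on groups with few counts. At MII 6 of 8 control eggs and 12 of 15 cKO eggs had 0 counts of Hspa1b.

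The 3 h of culture went with no called change. In edgeR 0 of 10 members and 0% of all genes were called from GV to GV3h in controls, and 0 of 10 and 0% in the cKO. At an unadjusted p under 0.05 there were 425 and 373 genes, and DESeq2 called 18 and 17. The largest member estimate was -1.82 for Hspa1b in controls (SE 1.10). The interaction of stage and genotype called 0 members and 0% of genes for GV to GV3h in edgeR, with 307 genes at an unadjusted p under 0.05 and 0 in DESeq2. From GV to MII it called 0 members in polyA libraries, against 1.94% of genes. In RiboMinus libraries it called 0 members and 0% of genes in edgeR, with 3611 genes at an unadjusted p under 0.05 and 1141 in DESeq2, among them 2 members.

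Genes around the members were taken from fixed lists. Of 21 tested co-chaperones of HSP70 and HSP90, 7 were higher and 2 lower in the cKO at polyA GV3h (median 0.29, all genes 0.07), where 25.2% of all genes were called. At polyA GV 2 were lower, and at polyA MII 2 were higher (median 0.12, all genes 0.12), against 7.38% and 18.9% of all genes. Fkbp5, an HSP90-bound immunophilin induced by steroid receptors, was lower at GV (-1.31, SE 0.27, adjusted p = 0.0105) and GV3h (-1.54, SE 0.22, adjusted p = 0.000225). Tomm34, a tetratricopeptide protein that binds both chaperones, was higher at GV3h (0.88, SE 0.21, adjusted p = 0.0071) and at RiboMinus MII (1.56, SE 0.40, adjusted p = 0.049), with polyA MII at 0.01 (SE 0.21). At RiboMinus MII 1 of 23 co-chaperones was higher and 3 were lower, against 7.3% of all genes.

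Among 15 tested genes that HSF1 is known to induce on heat shock, 2 were lower at polyA GV, 2 were higher and 3 lower at GV3h, and 4 were higher at MII, against 7.38%, 25.2% and 18.9% of all genes called. At RiboMinus MII 1 of 18 was higher and 4 were lower, against 7.3%. Stip1, or HOP, the adaptor that joins HSP70 and HSP90, was lower at GV (-0.71, SE 0.18, adjusted p = 0.028) and GV3h (-0.54, SE 0.15, adjusted p = 0.014). Dnaja1, a J-domain gene on this and the J-domain list, was higher in polyA cKO eggs (1.03, SE 0.15, adjusted p = 0.00037) and lower in RiboMinus cKO eggs (-1.32, SE 0.25, adjusted p = 0.025). Dnajb4, another J-domain gene, was lower at polyA GV (-0.91, SE 0.26, adjusted p = 0.044) and GV3h (-0.84, SE 0.21, adjusted p = 0.0087), where 1 and 3 of the 9 J-domain genes tested were lower.

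Of the 4 other heat shock factor and regulator genes tested in polyA libraries, 2 were called in genotype comparisons, Hsf2 and Hsf5, and neither was tested against Hsf1. All genes were called at 7.38%, 25.2% and 18.9% at polyA GV, GV3h and MII. Hsf2, which is active in germ cells, was higher at polyA GV (2.60, SE 0.53, adjusted p = 0.011) and GV3h (3.89, SE 0.47, adjusted p = 8.6e-05). Hsf5 was lower in all 3 polyA comparisons, by -1.35, -1.33 and -0.80 (SE 0.29, 0.24 and 0.24). Of 4 other HSP70 family genes tested in polyA libraries only Hspa12a was called, lower at GV, GV3h and MII (-0.81, -1.06 and -0.84), and 1 of 4 is near those shares at GV3h and MII.

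Of 7 chaperones of other compartments, 1 was called at polyA GV, 2 at GV3h and 2 at MII, all higher in the cKO. The shares of all genes called were 7.38%, 25.2% and 18.9%, and the list was near them at GV3h and MII. Hspa5, or BiP, the HSP70 of the endoplasmic reticulum, was higher in the cKO at polyA GV (0.80, SE 0.20, adjusted p = 0.027), GV3h (1.29, SE 0.17, adjusted p = 0.00012) and MII (2.22, SE 0.17, adjusted p = 2.1e-06). Hsp90b1, the HSP90 of that compartment, was higher at GV3h (0.54, SE 0.15, adjusted p = 0.014) and MII (1.63, SE 0.15, adjusted p = 9.2e-06). The other 5 were not called in polyA libraries. In RiboMinus eggs Hspa5 was at 0.15 (SE 0.45) and Hsp90b1 at -0.90 (SE 0.32), neither called, while Hspd1, the mitochondrial HSP60, was the 1 of 7 called (against 7.3% of all genes), lower in the cKO (-1.38, SE 0.32, adjusted p = 0.038) and outside the rule for named genes.

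Of the 14 subunits of the chaperonin TRiC and of prefoldin, 2 were called at polyA GV, both higher: Cct6a (3.29, SE 0.89, adjusted p = 0.036) and Cct4 (1.32, SE 0.36, adjusted p = 0.037). At GV3h 2 were higher and 1 lower, at polyA MII 2 and 1, and at RiboMinus MII 1 and 4, the higher one being Cct6a (3.5, SE 0.74, adjusted p = 0.032). All genes were called at 7.38%, 25.2%, 18.9% and 7.3% in these 4 comparisons. Of the small heat shock proteins 4 were tested in polyA libraries and 0 were called at any stage, while Hspb11, 1 of 8 tested there, was lower in RiboMinus eggs (-2.35, SE 0.43, adjusted p = 0.024). The 3 snoRNAs in Hspa8 introns were tested only in RiboMinus libraries, where Snord14c, Snord14d and Snord14e were not called in either genotype comparison. Of all genes 0.0315% were called there at GV and 7.3% at MII. In that order their log2 differences were 0.90, 0.37 and 0.45 at GV. At MII, against the lone control female, they were -1.89, -2.77 and -2.24.

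Genes that respond to handling were followed because the inducible HSP70 genes do so too. Their summed level was 281 to 440 CPM in polyA control eggs and 127 to 218 in cKO eggs, 128 to 182 in polyA GV controls and 75.2 to 215 in the GV cKO. In RiboMinus GV oocytes it was 149 to 227 CPM in controls (median 182) and 179 to 344 in the cKO (median 215), with a summed level of Hspa1a and Hspa1b of 3.46 and 11.6 CPM (medians). Of the 12 tested in polyA libraries, 2 were higher at GV, 3 higher and 2 lower at GV3h, and 1 higher and 3 lower at MII, against 7.38%, 25.2% and 18.9% of all genes called. At RiboMinus MII 3 of 16 were higher and 1 lower, against 7.3%. Dusp1, a phosphatase induced early in stress, was lower in the cKO at GV3h (-1.49, SE 0.32, adjusted p = 0.0031) and MII (-1.46, SE 0.31, adjusted p = 0.0051) and at RiboMinus MII (-1.86, SE 0.30, adjusted p = 0.017). Ier2, an immediate early gene, was higher at GV (3.35, SE 0.83, adjusted p = 0.026) and GV3h (4.32, SE 0.72, adjusted p = 0.00064). Their part in the members' values was not tested.

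Across the 23 females, after centring log2 CPM within library type, Hsp90aa1 and Hsp90ab1 were the most alike pair of members (Pearson r = 0.86), followed by Hspa4 and Hsph1 (0.82) and by Hsph1 and Dnajb1 (0.73). Hsf1 ran against Hspa4 (-0.72) and Hsph1 (-0.69). Among 8130 genes the one most like each member was Afdn for Hsp90ab1 (0.97), Serinc4 for Hspa4 (0.97), Nemf for Hsp90aa1 (0.96), Cuta for Hsf1 (0.95), Map3k11 for Hsph1 (0.94) and Gm2788 for Dnajb1 (0.84). For Hspa8 it was Zfp184, at 0.69, the lowest of the 7 members compared. These values describe patterns shared over stages, genotypes and library depth, and carry no test.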

How the data were processed

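Per the labels, RNA was measured in single oocytes, and 86 libraries of 23 females were used; the 22 libraries of ribosomal RNA were not used here. The authors deposited whole-number read counts per gene. Per the submitters' processing notes, the tools were cutadapt 2.5, FastQC 0.11.8, STAR 2.7.2a, SAMtools 1.9, HTSeq 0.9.1, R 3.5.1 and DESeq2 1.24.0, with the genome build mm10. The annotation release and the strand setting are not given in the sources used here. The files list 0 reads as not uniquely aligned, and reads without a gene (5.85% to 14.2% of a library's lines) or ambiguous between genes (2.07% to 3.19%) stayed out of totals and tests. Spike-ins were added to the polyA lysates, but the files hold 0 lines for them.

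Counts were summed per female and tested with edgeR 4.0.16 (R 4.3.3; filterByExpr, TMM, quasi-likelihood F test, two-sided, one mean per group, all groups of a library type in 1 fit, and all 10 groups for comparisons between library types). P-values were adjusted by Benjamini-Hochberg over all genes tested and called under 0.05, over 17 contrasts. They set each difference against the spread between these females, pooled over the groups of a fit. The lone RiboMinus MII control female adds nothing to that spread. Alternatives were oocytes as replicates, voom in limma 3.58.1 on oocytes, blocked by female, DESeq2 1.42.0, other scalings, no filter, the compared groups alone, each female left out in turn and, chosen after seeing the data, counts of Gm15459 added to those of Hspa8. The fit was tested on simulated data. Symbols and exon lengths from GENCODE M21 matched 55394 of the 55573 gene IDs.

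The members and gene lists were chosen with earlier results of these data known. Genes named were the members, Exosc10, the gene most like each member and at most 2 genes per list. The latter were those called in most of the 5 genotype comparisons, ties by size of change, with a mean log2 CPM of at least 3. Outside that rule, Gm15459, Gm12346, Hspd1 and the snoRNAs of Hspa8 were named.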

Additional observations from a re-analysis of the deposited data

Results flagged for a closer look

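In 3 of 59 combinations of a member and a group of 4 to 10 oocytes a single oocyte stood far from the others, and chance alone gives about 1 in 20. The lowest Hspa8 value among polyA GV controls was 43.6 CPM, the highest Hspa1a value among RiboMinus cKO eggs was 1.01 CPM, and the highest Hsph1 value among polyA control eggs was 252.9 CPM.

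For 3 members the change from GV to MII in controls differed between polyA and RiboMinus libraries. The test was a difference of differences in edgeR, in a fit with 1 mean per group. The difference on the log2 scale (polyA minus RiboMinus) was 1.17 for Hsp90aa1, 2.22 for Hsp90ab1 and 1.26 for Hsf1, and 22.8% of all genes were called there. For 2 members the difference between cKO and control eggs differed between library types, by 1.31 for Hsp90aa1 and -1.08 for Hsf1, against 9.43% of all genes called. The RiboMinus control eggs in all 5 of these tests came from 1 female, so that this female and the group cannot be told apart.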

How the results depend on the processing

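Counts are of the 10 members called, against the counts by edgeR on sums per female, and those within 1.5 times of that count are not listed. Among the latter, polyA MII went from 2 to 3 with DESeq2, its size factors, library totals or only the groups compared. With each oocyte as a replicate they were 7 at polyA GV, 4 at GV3h and 5 at MII between genotypes, 2 at RiboMinus GV and 4 at RiboMinus MII, 1 from GV to GV3h in the cKO, 3 and 7 from GV to MII in RiboMinus controls and cKO, 2 and 3 for the polyA and RiboMinus interactions to MII, 6 for library by stage and 1 for library by genotype at GV. That fit called, in the same order, 35.8%, 44%, 40.1%, 25.8%, 34.6%, 1.57%, 19.4%, 22.4%, 16.9%, 14.8%, 44.5% and 0.777% of all genes. In the same order limma voom gave 3, 4 and 4, then 1 and 2, then 1 and 7 for RiboMinus maturation, and 1 and 2 for the interactions, with 20.1%, 33.4%, 22.4%, 8.32%, 24.8%, 7%, 19.9%, 4.82% and 4.36% of all genes. Without a filter there were 3 at polyA GV and 5 at MII, 1 and 3 in RiboMinus libraries, 1 for RiboMinus control maturation, 2 and 2 for the interactions and 1 for library by genotype at MII, with 5.94%, 11%, 4.74%, 11.9%, 3.09%, 2.94%, 2.89% and 6.75% of all genes. With only the groups compared there were 4 at GV3h, 6 and 0 for RiboMinus maturation in controls and cKO, and 1 for library by genotype at MII, with 39.7%, 27.9%, 0% and 4.12% of all genes; this fit was not run for the RiboMinus interaction, whose groups are already all of them. DESeq2 gave 1 at polyA GV, 1 and 4 in RiboMinus libraries, 2 for RiboMinus control maturation and 2 for its interaction, with 14.2%, 6.16%, 20.9%, 6.37% and 4.49% of all genes. DESeq2's size factors gave 1 at polyA GV, and library totals gave 1 at polyA GV and 2 at RiboMinus MII, with 7.4%, 7.38% and 6.9% of all genes. The causes of these differences were not tested. The addition of Gm15459 to Hspa8, chosen after seeing the data, raised the count for polyA maturation in the cKO from 6 to 7 and left all others as they were.

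With 1 female left out at a time the counts between genotypes ran from 0 to 2 at polyA GV, 1 to 1 at GV3h, 1 to 2 at MII, 0 to 1 at RiboMinus GV and 2 to 3 at RiboMinus MII. The share of all genes called ran from 0.529% to 8.8%, 15.7% to 24.9%, 13.5% to 16.1%, 0.00798% to 4.71% and 8.27% to 15.2%. From GV to MII they ran from 5 to 6 in polyA controls, 5 to 7 in the polyA cKO and 0 to 5 in the RiboMinus cKO, with 28.6% to 40.3%, 31.9% to 41% and 0.0247% to 7.61% of all genes. They ran from 0 to 3 for the polyA interaction to MII, 3 to 3 for library by stage and 1 to 2 for library by genotype at MII, with 0.293% to 6.03%, 18.1% to 22.6% and 7.26% to 12.1% of all genes.

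No called fold change of a member changed sign under any alternative. Of the 27 called, 7 lost the call with library totals, 1 with DESeq2's size factors and 1 without a filter. With only the groups compared, 5 of 25 lost it. Over all genes, library totals moved the share of calls that were higher from 47% to 74.2% at polyA GV, 49.5% to 70.5% at GV3h and 49.5% to 65.9% at RiboMinus MII between genotypes, from 39.5% to 21.4% and 40.5% to 20% for polyA maturation in controls and cKO, from 81.8% to 68.9% for its interaction and from 47.7% to 28.2% for library by stage. No paired analysis was possible because the groups compared came from different females, and shared numbers only tie RiboMinus and rRNA files of the same oocytes, which were not compared. Hspa1a and Hspa1b had few counts in most groups, which limits the precision of their fold changes.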
